A study of Homo sapiens with 6 samples.

Results

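Triglyceride synthesis and lipid droplet storage were examined through 47 genes, chosen by symbol, among the 58735 genes listed for U251, a human glioblastoma cell line. RNA-seq libraries had been made from cells given sterile deionized water (NC group, 3 libraries) or recombinant human TNF-α at 10 ng/mL (TNF-α group, 3 libraries), both for 24 h and each described as 3 independent biological replicates. Both groups come from 1 parental line with no genetic change, so the spread between libraries is that of cultures of 1 line. The question of the comparison was whether a low dose of TNF-α changes the transcripts of the genes that make and store neutral lipid. Expression is given as FPKM, fragments per kilobase of exon and scaled to library size, a measure on which genes of different length can be compared within a library.

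Triglyceride is made at the endoplasmic reticulum (ER) by adding 3 fatty acyl chains in turn to glycerol-3-phosphate. The intermediates are lysophosphatidate, phosphatidate and diacylglycerol, and the last acyl chain is added by a DGAT enzyme. The product buds from the ER as a lipid droplet, coated by perilipins and other surface proteins, and lipases release the fatty acids again. Glioblastoma cells are known for storing lipid in droplets, both as triglyceride and as cholesteryl ester made by SOAT enzymes.

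The libraries held from 31992167 to 37897044 reads in genes. TNF-α replicates 2 and 3 stood apart from the other 4 libraries. Across tested genes their log2 values correlated with those of the other 4 at a Pearson r of 0.879 to 0.912, against 0.979 to 0.980 between TNF-α replicate 1 and the NC libraries. Genes longer than 8 kb took 16.6% and 17.9% of reads in TNF-α replicates 2 and 3 and 28.8% to 29.1% in the other 4, and 86 ribosomal protein genes took 8.11% and 6.96% against 2.90% to 3.22%. Divided by the reads in genes, the library size behind the FPKM was 0.693 and 0.759 in TNF-α replicates 2 and 3. It was 0.925 to 0.959 in the other 4. The same share of the reads in genes thus gives a higher FPKM in TNF-α replicates 2 and 3. The part of these differences in the results was not tested, and each result is therefore given library by library. NFKBIA, an inhibitor of NF-κB that TNF-α induces, was at 13.0 to 14.4 FPKM with deionized water against 75.3 to 118 FPKM with TNF-α, with all 3 TNF-α libraries higher. The 5 glial markers moved in both directions. GFAP, the astrocyte filament gene, was at 7.10 to 9.47 FPKM for NC and at 1.58 to 2.60 FPKM with TNF-α, and SOX2 was at 58.9 to 66.3 FPKM and then at 57.8, 22.6 and 30.4 FPKM. VIM was at 325 to 362 FPKM and then at 434, 974 and 850 FPKM, NES at 41.1 to 44.4 and then 40.8 to 69.2 FPKM, and S100B did not exceed 0.168 FPKM. The adipocyte genes ADIPOQ, LEP and PCK1 and the leukocyte gene PTPRC had no read in any library. CEBPA, also listed as an adipocyte gene, was at 0.800 to 1.26 FPKM for NC and at 0.807 to 1.02 FPKM with TNF-α. The endothelial genes PECAM1, CDH5 and VWF did not exceed 0.332 FPKM. Of 5 macrophage genes CD14 was the highest, at 0.528 to 1.55 FPKM. Total RNA of a culture was measured, so fewer expressing cells and less RNA per cell cannot be told apart.

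Of the 47 genes, 26 reached 1 FPKM in at least 3 libraries and were tested, together with all 12136 genes that did so. The other 21 were too low for the test, and 8 of them stayed below 3 reads in every library. The 26 tested genes were compared by limma on log2(FPKM + 1) with Benjamini-Hochberg adjustment over the 12136 genes. A log2 fold change on this scale understates the change of low genes.

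**Figure D1:**
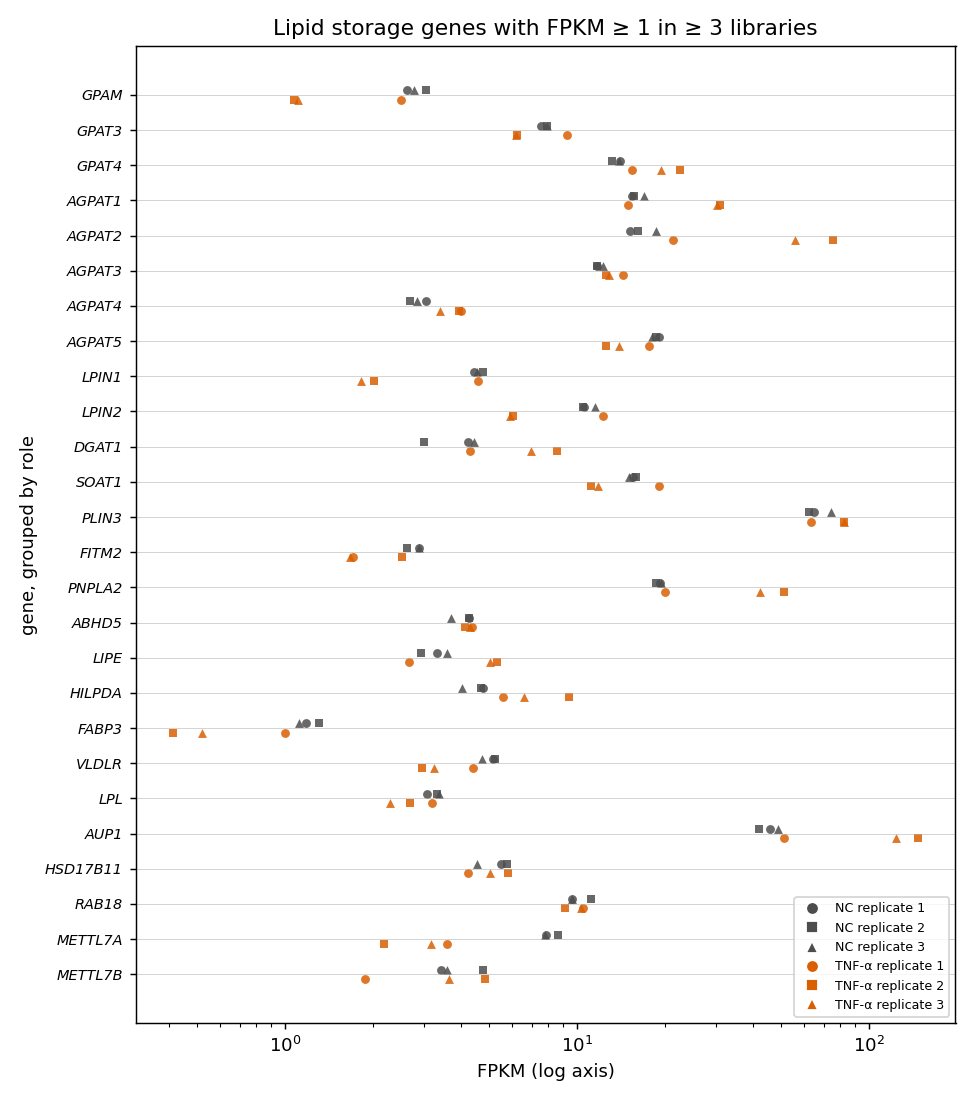
Expression of the genes in each of the 6 libraries, on a log scale of FPKM and grouped by role. PLIN3 and AUP1 are the most abundant of the 47 genes, while most perilipin and CIDE genes were near 0 FPKM.

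METTL7A fell in the TNF-α group and was the single gene of the 26 to pass an adjusted p of 0.05 in limma. It encodes a methyltransferase-like protein of the ER membrane that moves to droplets, and it lies on chr12:50923472-50932517 (GRCh38, plus strand, ENSG00000185432), with no exon shared with another gene. Its level was 7.86, 8.65 and 7.79 FPKM with deionized water against 3.61, 2.19 and 3.16 FPKM with TNF-α. All 3 TNF-α values lay below all 3 NC values, and TNF-α replicate 1, which resembled the NC libraries in composition, was among them. The means were 8.10 ± 0.477 FPKM (SD, n = 3) and 2.98 ± 0.722 FPKM (SD, n = 3), so that the TNF-α mean was 0.369 of the NC mean. The log2 fold change was -1.21 (SE 0.17, 95% CI -1.61 to -0.80) with an adjusted p of 0.0377 by limma. Behind these values were 1159, 1158 and 1022 reads for NC against 473, 232 and 313 for TNF-α. By an exact permutation test on this gene alone the two-sided p was 0.1, the smallest that 3 against 3 libraries allow.

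Among all 12136 genes 1.01% passed the same threshold, 0.717% with the higher and 0.297% with the lower TNF-α mean, and 1 of the 26 is 3.85%. METTL7A was likewise the single call among the 26 after each library was corrected for GC content and gene length (log2 fold change -1.14, limma adjusted p = 0.0161). In that setting 2.32% of all genes were called. METTL7A was also the single call with limma-voom on the recovered reads, where 0.898% of all genes were called. With TNF-α replicates 2 and 3 left out its log2 fold change was -0.98 (limma adjusted p = 0.0027), and with TNF-α replicate 1 left out -1.32 (limma adjusted p = 4.15e-05). The call was lost, with the direction kept, when NC replicate 1, 2 or 3 was left out (limma adjusted p = 0.242, 0.277 and 0.244) and without TNF-α replicate 2 or 3 (limma adjusted p = 0.0793 and 0.205). It was also lost as TPM, with libraries scaled to reads in genes, with no minimum and with the replicate number as a block (limma adjusted p = 0.138, 0.0602, 0.103 and 0.171), and with that block and the GC and length correction together (0.109).

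METTL7B, the paralogue of METTL7A (chr12:55681546-55684611, ENSG00000170439), encodes a second protein of the same kind. It was at 3.44, 4.78 and 3.60 FPKM across the NC cultures against 1.88, 4.87 and 3.64 FPKM after TNF-α. TNF-α replicate 1 lay below the NC group and TNF-α replicate 2 above it, so the groups overlapped. The log2 fold change was -0.20 (SE 0.28, limma adjusted p = 0.590). With the GC and length correction the 3 TNF-α libraries of METTL7B lay at -0.72, -0.40 and -0.60 from the NC mean, and the log2 fold change was -0.57 (limma adjusted p = 0.117).

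**Figure D2:**
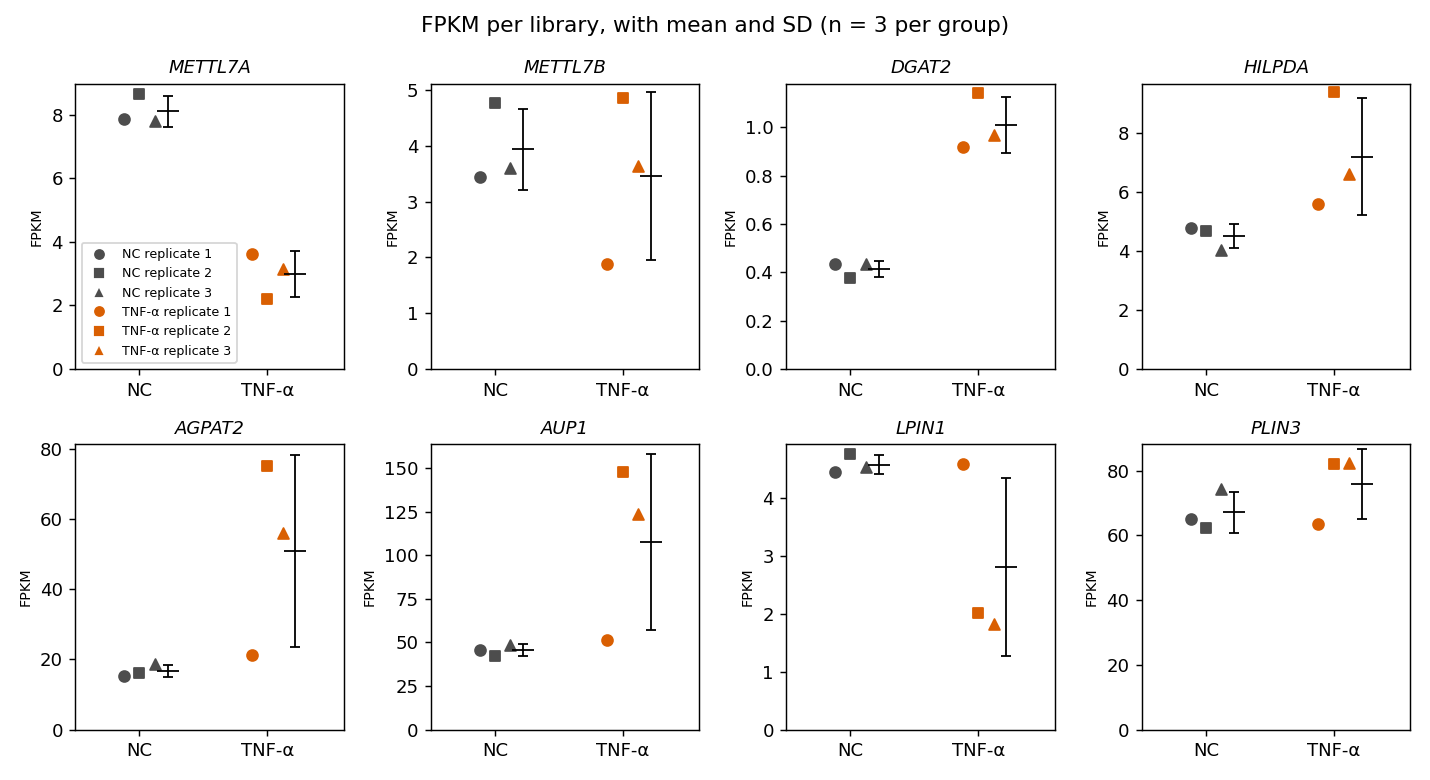
FPKM of selected genes in each library (points) with the group mean and SD (bars), for NC (n = 3) and TNF-α (n = 3). METTL7A is lower in all 3 TNF-α libraries, whereas AGPAT2 and AUP1 are at 21.4 and 51.2 FPKM in TNF-α replicate 1, nearer to the NC group than in replicates 2 and 3.

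With no adjustment, 12 of the 26 genes (46.2%), METTL7A among them, had an unadjusted p under 0.05, against 24.2% of all genes tested. Of these 12, 7 had the higher mean in the TNF-α group (12.3% of all genes) and 5 the lower (11.9% of all genes). The groups did not overlap for 13 of the 26 genes (50%), against 30.1% of all genes. All of the unadjusted results other than METTL7A had an adjusted p of 0.195 in limma, and none of them is counted as changed. The count of 12 depended on each library. It was 1, 1 and 2 without NC replicate 1, 2 or 3. Without TNF-α replicate 1, 2 or 3 it was 21, 3 and 2. In the same order, the share of all genes tested was 8.22%, 8.06%, 9.11%, 80.7%, 8.89% and 7.47%. The 26 log2 fold changes had a median of -0.04, beside 0.04 over all genes tested.

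The first acyl chain is added by glycerol-3-phosphate acyltransferases. The ER enzyme GPAT4 was the most abundant, at 14.0, 13.2 and 14.0 FPKM with deionized water against 15.4, 22.6 and 19.5 FPKM with TNF-α, all 3 above the NC range. Its means were 13.7 ± 0.447 and 19.2 ± 3.59 FPKM (SD, n = 3 each), with a log2 fold change of 0.43 (SE 0.17, limma unadjusted p = 0.0382, adjusted p = 0.195). Scaled to reads in genes the log2 fold change was 0.18, and as TPM it was -0.042. GPAM, a mitochondrial enzyme of the family, stood at 2.61, 3.04 and 2.76 FPKM and then at 2.51, 1.08 and 1.11 FPKM. All 3 TNF-α values of GPAM lay below the NC range, at -0.12, -0.87 and -0.85 from the NC mean on the log2(FPKM + 1) scale. The fitted log2 fold change was -0.61 (SE 0.23, limma unadjusted p = 0.0340, adjusted p = 0.195), and -0.12 after the GC and length correction (limma adjusted p = 0.362). GPAT3, a second ER enzyme, had NC values of 7.56 to 7.91 FPKM and TNF-α values of 9.23, 6.22 and 6.18 FPKM, on both sides of the NC range. GPAT2 did not exceed 2 reads in any library. Summed over the family, expression was 24.2 to 24.6 FPKM for NC against 26.8 to 29.9 FPKM for TNF-α.

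The second chain is added by the lysophosphatidate acyltransferases of the AGPAT family, and all 5 were tested. AGPAT2 (chr9:136673143-136687423, GRCh38) had the largest fitted difference of the 26 genes in the upward direction. It stood at 15.3, 16.2 and 18.6 FPKM for NC against 21.4, 75.3 and 55.9 FPKM for TNF-α. The value of TNF-α replicate 1 was just above the NC range and those of replicates 2 and 3 were far above it. The means were 16.7 ± 1.74 and 50.8 ± 27.3 FPKM (SD, n = 3 each), and the log2 fold change of 1.38 (SE 0.45) had a limma unadjusted p of 0.0200 and an adjusted p of 0.195. Leaving out TNF-α replicate 1 gave AGPAT2 a limma adjusted p of 1.92e-05, and leaving out replicates 2 and 3 gave a log2 fold change of 0.34 (limma adjusted p = 0.162). After correction for GC content and length the log2 fold change was 0.76 (limma adjusted p = 0.0934).

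AGPAT4 differed from AGPAT2 in that the FPKM of its 3 TNF-α libraries were alike. It was at 3.05, 2.68 and 2.84 FPKM across the NC cultures against 4.02, 3.94 and 3.40 FPKM after TNF-α. Its groups did not overlap in FPKM, and the log2 fold change was 0.31 (SE 0.12, limma unadjusted p = 0.0387, adjusted p = 0.195). It was 0.63 after the GC and length correction (limma adjusted p = 0.0819). Scaled to reads in genes it was 0.11 (limma unadjusted p = 0.516), and as TPM it was -0.087. AGPAT3 was at 11.8 to 12.3 FPKM and then at 12.6 to 14.4 FPKM, also without overlap in FPKM. Its log2 fold change was 0.14 (SE 0.12, limma adjusted p = 0.369), or 0.34 with the GC and length correction. The sign for AGPAT3 turned to -0.10 scaled to reads in genes and to -0.34 as TPM. AGPAT1 stood at 15.5 to 16.9 FPKM across the NC cultures against 15.0, 31.0 and 30.3 FPKM after TNF-α. TNF-α replicate 1 was thus below the NC range (log2 fold change 0.56, or 0.28 with the GC and length correction). The exons of AGPAT1 overlapped those of other genes over 30.2% of their length, and its reads cannot be assigned with certainty because the use of strand in counting is not given in the sources used here. AGPAT5 was the member of the family with a lower TNF-α mean, at 18.0 to 19.1 FPKM and then 17.7, 12.6 and 14.0 FPKM (log2 fold change -0.33, SE 0.16, limma adjusted p = 0.196, or -0.13 with the correction).

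**Figure D3:**
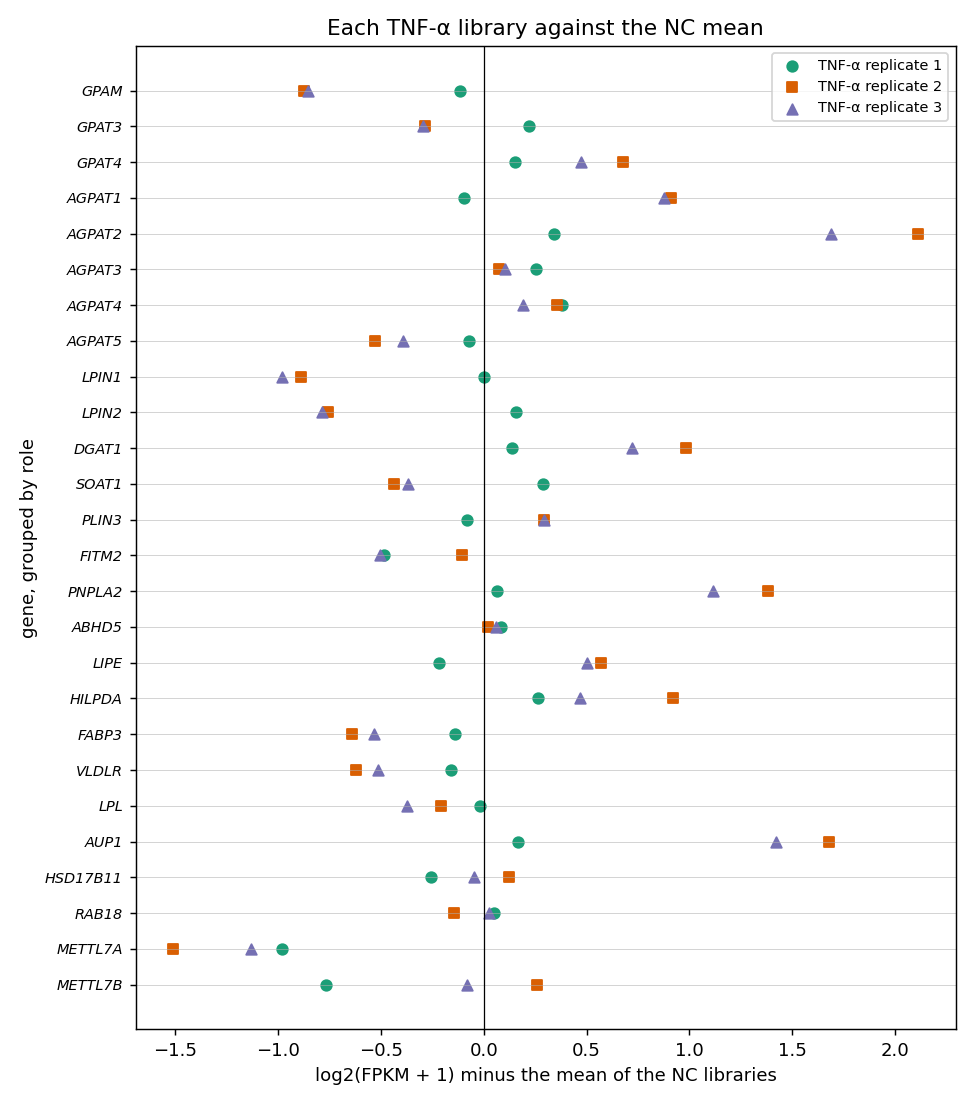
Each TNF-α library against the mean of the NC libraries for the 26 tested genes, as the difference in log2(FPKM + 1), with a marker for each of the 3 libraries. METTL7A lies at -0.98, -1.51 and -1.13, whereas for AUP1, PNPLA2, GPAM and LPIN1 replicate 1 lies within 0.17 of 0 and replicates 2 and 3 lie farther out. AGPAT2 lies at 0.34, 2.11 and 1.69.

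Lipins remove the phosphate from phosphatidate and so supply diacylglycerol. LPIN2 was the most abundant, at 10.6, 10.5 and 11.6 FPKM with deionized water against 12.3, 6.05 and 5.90 FPKM with TNF-α, the first above and the others below the NC range. Its means were 10.9 ± 0.597 and 8.07 ± 3.63 FPKM (SD, n = 3 each), at a log2 fold change of -0.46 (SE 0.27, limma adjusted p = 0.235), or -0.29 after the GC and length correction. LPIN1 was at 4.45 to 4.76 FPKM with deionized water against 4.59, 2.02 and 1.83 FPKM with TNF-α, where replicate 1 lay inside the NC range (log2 fold change -0.62, SE 0.27, limma unadjusted p = 0.0599, adjusted p = 0.195, or -0.16 with the correction). LPIN3 did not exceed 4 reads.

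The committed step to triglyceride is catalysed by DGAT1 and DGAT2, which are unrelated in sequence. DGAT1 was at 4.23, 3.0 and 4.43 FPKM for NC against 4.32, 8.57 and 6.98 FPKM for TNF-α. TNF-α replicate 1 lay within the NC range and the other two above it, and the means were 3.89 ± 0.772 and 6.63 ± 2.15 FPKM (SD, n = 3 each). The log2 fold change of DGAT1 was 0.61 (SE 0.25, limma unadjusted p = 0.0485, adjusted p = 0.195), and 0.17 after the GC and length correction (limma adjusted p = 0.317).

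DGAT2 was low and did not enter the main test. It had 0.434, 0.374 and 0.433 FPKM across the NC cultures against 0.917, 1.14 and 0.969 FPKM after TNF-α, from 97 to 124 reads and from 186 to 234 reads per library. All 3 TNF-α values were above all NC values, replicate 1 included. With the minimum lowered to 0.5 FPKM, which DGAT2 passed only through its TNF-α libraries, the log2 fold change was 0.51 (SE 0.11, limma adjusted p = 0.124 over 14157 genes). With no minimum the limma adjusted p was 0.304. The monoacylglycerol acyltransferases MOGAT1 and MOGAT2, which serve the route from dietary monoacylglycerol in the intestine, had 0 reads in all 6 libraries.

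SOAT1, which esterifies cholesterol for storage in droplets, was at 15.5, 16.0 and 15.1 FPKM with deionized water against 19.2, 11.2 and 11.8 FPKM with TNF-α. TNF-α replicate 1 was above the NC range and the other two below it. The means were 15.5 ± 0.457 and 14.1 ± 4.44 FPKM (SD, n = 3 each), with a log2 fold change of -0.17 (SE 0.22, limma adjusted p = 0.541). The direction turned with the GC and length correction, where SOAT1 lay between 0.25 and 0.28 above the NC mean in the 3 TNF-α libraries and the log2 fold change was 0.27 (limma adjusted p = 0.139). SOAT2, the intestinal and hepatic form, had 2 to 10 reads per library.

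Perilipins coat the droplet surface, and PLIN3 carried almost all of the perilipin expression of these cells. It stood at 65.0, 62.2 and 74.3 FPKM for NC against 63.4, 82.2 and 82.2 FPKM for TNF-α. The means were 67.2 ± 6.34 and 75.9 ± 10.9 FPKM (SD, n = 3 each), and PLIN3 was the most abundant of the 47 genes in the NC group. The groups overlapped, and the log2 fold change was 0.17 (SE 0.17, 95% CI -0.25 to 0.59, limma adjusted p = 0.458). This sign was not stable, since the log2 fold change became -0.31 after correction for GC content and length and -0.31 after quantile normalization, -0.33 as TPM and -0.09 with libraries scaled to reads in genes. Of the exons of PLIN3 17.8% overlapped another gene.

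PLIN2, the perilipin usually found on droplets of non-adipose cells, had few reads. It had 4, 0 and 2 reads across the NC cultures against 0, 6 and 4 after TNF-α, where 3 reads correspond to 0.0163 to 0.0243 FPKM. The sequence reads were not analysed here, so this count could not be checked further. PLIN1, the adipocyte perilipin, had 0, 12 and 6 reads and then 0 in each TNF-α library. PLIN4 had 12 to 13 reads for NC against 3 to 9 for TNF-α. PLIN5, known from oxidative tissues, had 8 reads in TNF-α replicate 1 and 0 in the other 5. No direction was read from these counts.

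The CIDE proteins promote fusion of droplets. CIDEA and CIDEB had 0 reads in all 6 libraries and CIDEC had 1 read in 1 NC library. Every exonic base of CIDEB overlaps another gene, so that its count of 0 is uncertain.

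FITM2, an ER protein required for droplets to bud, was at 2.87, 2.62 and 2.88 FPKM with deionized water against 1.71, 2.53 and 1.68 FPKM with TNF-α. All 3 TNF-α values lay below the NC range, replicate 2 by the smallest margin. The means were 2.79 ± 0.147 and 1.97 ± 0.481 FPKM (SD, n = 3 each), and the log2 fold change of -0.36 (SE 0.15) had a limma unadjusted p of 0.0496 and an adjusted p of 0.195. FITM1, the muscle form, had 0 to 10 reads per library.

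BSCL2, which encodes seipin of the ER and droplet contact, was listed at 0.328, 0.385 and 0.385 FPKM for NC against 0.306, 0.0973 and 0.229 FPKM for TNF-α. These values rest on 47 to 50 and on 10 to 39 reads per library. The exons of BSCL2 overlap other genes over 51.9% of their length, among them the readthrough gene HNRNPUL2-BSCL2, which was listed at 0 in all 6 libraries, so the level is uncertain.

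Fatty acids leave the droplet through PNPLA2 (adipose triglyceride lipase), which makes the first cut. PNPLA2 (chr11:818902-825573, GRCh38) was at 19.3, 18.6 and 19.4 FPKM across the NC cultures against 20.0, 51.4 and 42.5 FPKM after TNF-α. Replicate 1 exceeded the NC range by little and replicates 2 and 3 by much, and the means were 19.1 ± 0.426 and 38.0 ± 16.2 FPKM (SD, n = 3 each). The log2 fold change was 0.85 (SE 0.34, limma unadjusted p = 0.0450, adjusted p = 0.195), and 0.35 after correction for GC content and length.

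HILPDA, a small droplet protein that inhibits PNPLA2, was at 4.79, 4.68 and 4.03 FPKM with deionized water against 5.59, 9.39 and 6.59 FPKM with TNF-α. The groups did not overlap, and the log2 fold change was 0.55 (SE 0.19, limma unadjusted p = 0.0283, adjusted p = 0.195), or 0.31 after the GC and length correction. ABHD5, the activator of PNPLA2, was at 3.72 to 4.28 FPKM and at 4.16 to 4.39 FPKM, at a log2 fold change of 0.06 and a 95% CI from -0.22 to 0.33. With that correction ABHD5 was at 0.53 (limma adjusted p = 0.175), outside this interval. LIPE, the lipase for diacylglycerol, was at 2.93 to 3.59 FPKM across the NC cultures against 2.67, 5.34 and 5.05 FPKM after TNF-α (log2 fold change 0.29, SE 0.23, limma adjusted p = 0.357, or 0.025 with the correction). The TNF-α mean was thus the higher for all 4 tested genes of this group, and none of the 4 passed the adjusted threshold. The NC and TNF-α values overlapped for ABHD5 and LIPE, and HILPDA is an inhibitor. A further list for lipolysis and lipoprotein lipase control, described below, had 6 tested genes. Of these, 3 had a higher and 3 a lower TNF-α mean. No common direction of lipolysis is therefore read from the 4 genes. PNPLA3 and the PNPLA2 inhibitor G0S2 did not exceed 2 and 4 reads.

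Of the role group for fatty acid entry and carriage, 3 genes could be tested, VLDLR, FABP3 and LPL. All 3 had lower TNF-α means, none of them past the adjusted threshold. A further list for fatty acid activation and entry, described below, had both directions. Of its 8 tested genes 3 had a higher and 5 a lower TNF-α mean. No common direction of fatty acid entry is therefore read from the role group. VLDLR is a receptor for triglyceride-rich lipoproteins and was the most abundant gene of the role group in the NC libraries. It was at 5.16, 5.26 and 4.75 FPKM and then at 4.43, 2.94 and 3.24 FPKM. Its groups did not overlap, with means of 5.05 ± 0.268 and 3.54 ± 0.786 FPKM (SD, n = 3 each) and a log2 fold change of -0.43 (SE 0.16, limma unadjusted p = 0.0316, adjusted p = 0.195). After correction for GC content and length the value for VLDLR was 0.04.

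FABP3, a fatty acid-binding protein of the cytosol, was at 1.19, 1.31 and 1.12 FPKM for NC against 1.00, 0.414 and 0.522 FPKM for TNF-α. It reached 1 FPKM in every NC library but only in replicate 1 of the TNF-α group. FABP3 thus entered the test through its NC libraries, where it was higher. The groups did not overlap, and the log2 fold change was -0.44 (SE 0.16, limma unadjusted p = 0.0349, adjusted p = 0.195), and -0.69 after the GC and length correction (limma adjusted p = 0.172). LPL, which releases fatty acids from lipoproteins, was at 3.07 to 3.37 FPKM and then 3.20, 2.69 and 2.29 FPKM (log2 fold change -0.20, SE 0.13, limma adjusted p = 0.284, or -0.085 with the correction). The scavenger receptor gene CD36 had 4 to 21 reads with deionized water against 0 to 10 with TNF-α. FABP4 had 0 to 8 reads and FABP5 0 or 1 read, and none of the 13 FABP5 pseudogenes in the table exceeded 2 reads. Sequence reads were not analysed here, so reads shared between FABP5 and its pseudogenes could not be checked.

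AUP1 (chr2:74526645-74529939, GRCh38), which takes part in protein degradation at the ER and also sits on droplets, was the most abundant of the remaining droplet genes. It was at 45.7, 42.1 and 48.7 FPKM across the NC cultures against 51.2, 148 and 123 FPKM after TNF-α. The first TNF-α value lay just above the NC range and the other two well above it, with means of 45.5 ± 3.33 and 107 ± 50.2 FPKM (SD, n = 3 each). The log2 fold change was 1.09 (SE 0.40, limma unadjusted p = 0.0318, adjusted p = 0.195), and 0.57 after correction for GC content and length (limma adjusted p = 0.151). Of the exons of AUP1 18.3% overlap HTRA2 on the opposite strand.

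RAB18, a GTPase of droplets, was at 9.63 to 11.2 FPKM for NC against 9.08 to 10.5 FPKM for TNF-α, with a log2 fold change of -0.02 and a 95% CI from -0.34 to 0.29, and 0.40 after the GC and length correction (limma adjusted p = 0.178). HSD17B11, a droplet-associated dehydrogenase, was at 4.55 to 5.76 FPKM and at 4.23 to 5.81 FPKM (log2 fold change -0.06, 95% CI -0.43 to 0.31, or -0.092 with the correction). Both groups overlapped for these genes. HSD17B13, the related liver enzyme, had 0 to 9 reads per library.

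**Figure D4:**
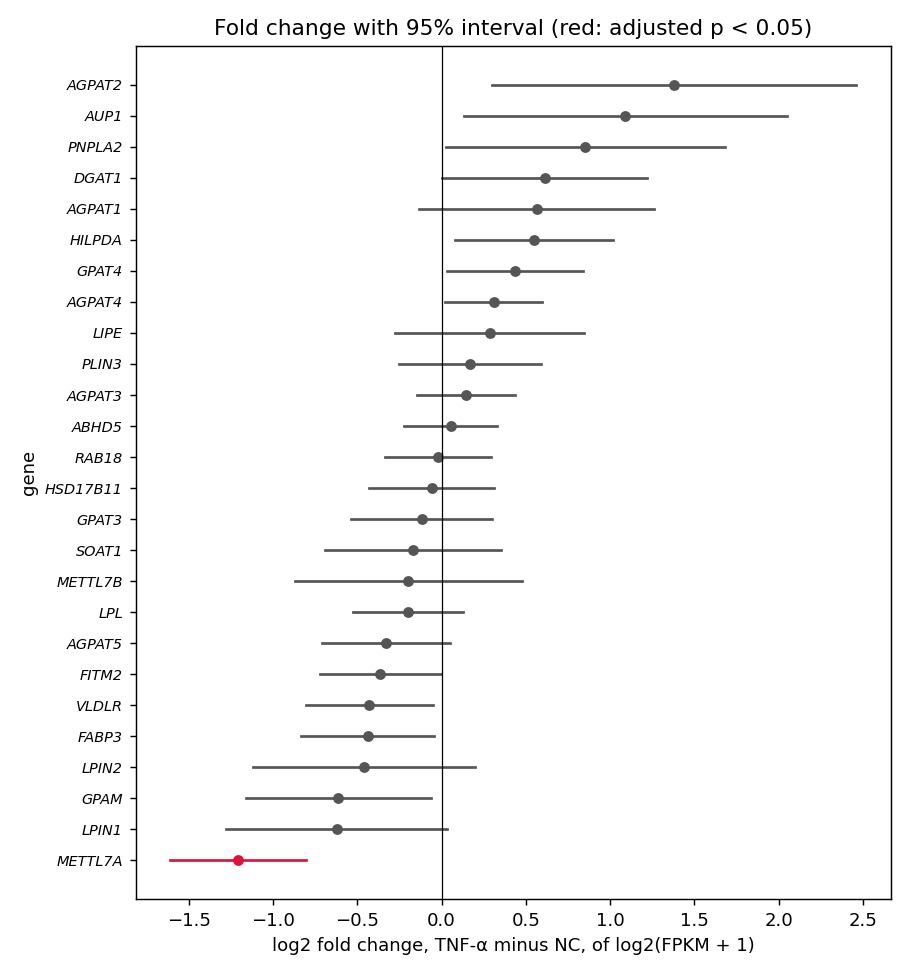
Fold change of each tested gene, TNF-α against NC, on the log2(FPKM + 1) scale with its 95% confidence interval from limma (n = 3 each). METTL7A at -1.21 is drawn in red as the gene past an adjusted p of 0.05, and the upper end holds AGPAT2 at 1.38, AUP1 at 1.09 and PNPLA2 at 0.85 with wide intervals.

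The per-library differences of the 26 genes moved with GC content in TNF-α replicates 2 and 3. The 12 genes with a higher TNF-α mean had a median GC content of 56.9% in their longest transcript and the 14 with a lower mean 43.9%, against 47.9% for all genes tested. Across the 26 genes, which share the same libraries and are not independent replicates, GC content and the log2 difference from the NC mean had a Pearson r of 0.13, 0.74 and 0.72 in TNF-α replicates 1 to 3 (Spearman rho 0.15, 0.68 and 0.64). Over all 12136 genes the Pearson values were -0.07, 0.43 and 0.41. A difference of at least 0.5 on the log2 scale was seen for 2 of the 26 genes in replicate 1, METTL7A and METTL7B, for 15 in replicate 2 and for 13 in replicate 3. The share of all genes past 0.5 is not given here, so these counts are not read as particular to the 26 genes. METTL7A had a GC content of 44.0%, and its 3 differences after correction for GC content and length were -0.98, -1.40 and -1.04.

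**Figure D5:**
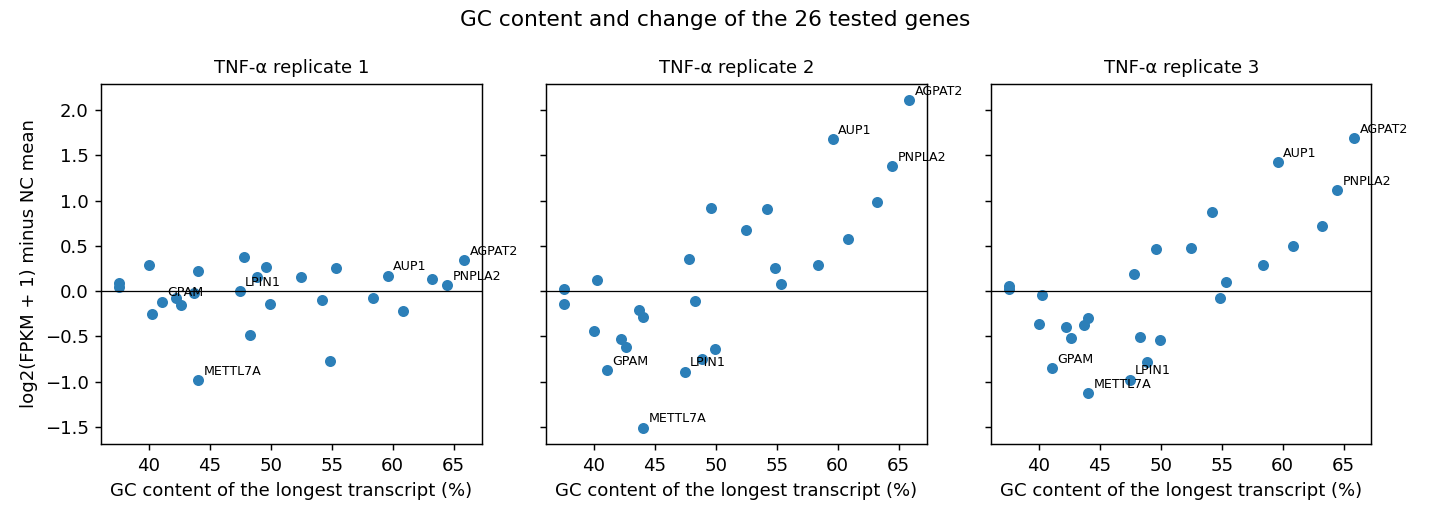
GC content of the longest transcript (x axis, percent) and difference from the NC mean in log2(FPKM + 1) (y axis) for the 26 tested genes, 1 panel for each TNF-α library. Points lie within 0.5 of 0 in replicate 1 except for METTL7A and METTL7B, and rise with GC content in replicates 2 and 3.

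With TNF-α replicate 1 left out, 20 of the 26 genes (76.9%) passed an adjusted p of 0.05 in limma, 10 in each direction, beside 79.4% of all genes tested. The 6 that did not were FITM2, AGPAT3, ABHD5, HSD17B11, RAB18 and METTL7B, with limma adjusted p from 0.0579 (FITM2) to 0.738 (HSD17B11). With replicates 2 and 3 left out, 3 of the 26 (11.5%) passed, beside 6.03% of all genes, and all 3 were lower in the remaining TNF-α library. They were METTL7A, METTL7B at a log2 fold change of -0.77 (limma adjusted p = 0.0456) and FITM2 at -0.48 (limma adjusted p = 0.0499). In this fit the lone TNF-α library is assumed to vary as the NC libraries do.

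A further 54 genes of the same pathways, grouped by function into 5 lists, were counted beside the 47. Of these, 40 were tested, 14 with a higher and 26 with a lower TNF-α mean, and 1 passed the adjusted threshold, beside 1.01% of all genes. It was MGLL, encoding monoacylglycerol lipase, which completes the breakdown begun by PNPLA2 and LIPE. MGLL (chr3:127689062-128052190, GRCh38, ENSG00000074416) was at 0.754, 0.739 and 1.00 FPKM for NC against 2.24, 2.98 and 3.35 FPKM for TNF-α, without overlap. It reached 1 FPKM in only 1 NC library, so it entered the test through its TNF-α libraries. At a minimum of 0.5 FPKM, which it reached in all 6 libraries, the limma adjusted p was 0.0437. The log2 fold change was 1.07 (SE 0.15, 95% CI 0.69 to 1.44, limma adjusted p = 0.0429), and the call was lost in 10 of 21 alternative settings, with adjusted p from 4.51e-05 to 0.317. The means were 0.832 ± 0.149 and 2.86 ± 0.568 FPKM (SD, n = 3 each). None of the 8 tested genes for fatty acid activation and entry, the 2 for glycerol-3-phosphate supply, the 14 partners of droplet formation and turnover or the 10 transcription regulators of lipid storage passed. An unadjusted p under 0.05 was found for 14 of the 40 (35%), against 24.2% of all genes tested. That count was 9, 8 and 10 without NC replicate 1, 2 or 3 and 35, 9 and 7 without TNF-α replicate 1, 2 or 3, where the share of all genes was 8.22%, 8.06%, 9.11%, 80.7%, 8.89% and 7.47%. Among the 14, ACSL5 and ANGPTL4 reached 1 FPKM only in TNF-α libraries. They thus entered the test through the group where they were higher. The median log2 fold change over the 40 genes was -0.27, beside 0.04 over all genes, and -0.086 beside 0.084 after the GC and length correction.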

How the data were processed

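Total RNA of U251 cells was poly(A)-selected and sequenced in 6 libraries, 3 per group by sample title. The authors deposited gene-level FPKM for 58735 genes, without pooling. The submitters' processing notes name HISAT2 2.0.5, StringTie 1.3.3b, featureCounts 1.5.0, DESeq2, edgeR and GATK 3.7, without saying which made the FPKM, and strand use in counting is not given in the sources used here. All 58735 identifiers, positions and lengths equalled GENCODE 29 (GRCh38), from which GC content and overlaps were taken. The table also holds 6 per-sample columns of no sample described here, which were not used. FPKM times gene length was a whole multiple of a step per library for 100% of values (tolerance 0.01 of a read), which gave the reads printed. DESeq2 and edgeR were not run.

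The groups were compared by limma 3.58.1 (R 4.3.3, lmFit and eBayes with trend, two-sided) on log2(FPKM + 1) for the 12136 genes with at least 1 FPKM in at least 3 libraries, with Benjamini-Hochberg adjustment over all of them and a threshold of 0.05. The GC content and length correction subtracted from each library a smooth fit (splines of 5 degrees of freedom) of its deviation from the mean of all libraries. limma-voom on the recovered reads was an alternative. The script was tested on simulated data. The count of 3 reads was taken as the floor, for counting error only. The 47 genes and the further lists were chosen with earlier results of these data known, so no test over a list was made. Every one of the 47 is named, with all libraries and statistics for those with an unadjusted p under 0.05 and for the most abundant of each of 11 role groups. p-values measure the spread between these cultures of 1 line.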

Additional observations from a re-analysis of the deposited data

How the results depend on the processing

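Over 22 alternative settings METTL7A kept its direction, with log2 fold changes from -1.83 to -0.98 and limma adjusted p from 4.15e-05 to 0.277. The call was kept in 12 and lost in 10, namely without a minimum (0.103), as TPM (0.138), scaled to reads in genes (0.0602), with the replicate block (0.171), with the GC and length correction and replicate block (0.109) and when any library other than TNF-α replicate 1 was left out. The cause was not tested. The deviations of same-numbered libraries from their group means had r of -0.01, -0.18 and 0.12. With 3 libraries a group, and TNF-α replicates 2 and 3 apart from replicate 1, these values cannot show whether the numbers are a pairing. The replicate block left 0 of the 47 genes, 24 of all genes and 0 of the pathway genes called. With the GC and length correction added it left 0, 44 and 0. Counts are given below in the order of the 47, all genes and the pathway lists, beside 1, 123 and 1. They were 1, 79 and 0 at a minimum of 5 FPKM, 0, 58 and 0 with no minimum, 0, 58 and 0 as TPM, 0, 92 and 0 scaled to reads in genes, 1, 185 and 3 after quantile normalization, 1, 282 and 2 with the GC and length correction, and 3, 732 and 8 without TNF-α replicates 2 and 3. With 1 library left out they ran from 0 to 20, from 10 to 9630 and from 0 to 34.

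The median log2 fold change of the tested genes of the 47 was -0.04 and became 0.14 at a minimum of 5 FPKM, -0.0021 with no minimum, -0.53 as TPM, -0.27 scaled to reads in genes, -0.079 after quantile normalization, -0.088 after median centring, -0.11 with limma-voom, 0.033 with the GC and length correction, with or without the replicate block, and 0.027 without TNF-α replicates 2 and 3. It ran from -0.082 to 0.041 with 1 library left out. Over all genes the median log2 fold change was -0.42 as TPM and -0.16 scaled to reads in genes. Signs turned as TPM for GPAT4 (-0.042), AGPAT4 (-0.087), PLIN3 (-0.33), AGPAT3 (-0.34), ABHD5 (-0.40) and LIPE (-0.14), none of them relative to the median of all genes. Scaled to reads in genes they turned for PLIN3 (-0.093), AGPAT3 (-0.10) and ABHD5 (-0.15), and after quantile normalization for PLIN3 (-0.31). The GC and length correction, with or without the replicate block, turned VLDLR (0.040), PLIN3 (-0.31), SOAT1 (0.27) and RAB18 (0.40). Without TNF-α replicates 2 and 3, LPIN2 (0.16), PLIN3 (-0.078), SOAT1 (0.29), GPAT3 (0.22), AGPAT1 (-0.095), LPIN1 (0.0024), LIPE (-0.22) and RAB18 (0.051) turned. Without TNF-α replicate 1, HSD17B11 (0.040) and METTL7B (0.089) turned, and RAB18 did so without NC replicate 2 (0.043) or TNF-α replicate 2 (0.038), its value with 1 library left out running from -0.059 to 0.043. With 3 libraries a group, differences such as that of PLIN3 were not detectable beyond their intervals.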

Other observations

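PLIN2 (chr9:19108375-19149290, GRCh38) had at most 6 reads in a library, while 3 of its 4 protein-coding neighbours within 100000 bases had at least 2439 reads in every NC library. HAUS6 had 3581 to 4216 reads for NC against 3946, 1306 and 1371 with TNF-α. RRAGA had 4094 to 4663 and 3674 to 4695 reads. DENND4C had 2439 to 2779 reads for NC against 2820, 361 and 378 with TNF-α, so that TNF-α replicates 2 and 3 stood apart from the other 4 libraries there. The remaining neighbour, SAXO1, had 9 to 15 reads for NC against 26, 8 and 13 with TNF-α.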
